A study of Mus musculus with 92 samples.

Results

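The genes described here encode splicing factors and heterogeneous nuclear ribonucleoproteins (hnRNPs) in mouse 8-cell blastomeres. They were chosen by symbol alone: the rows named Srsf, Snrp, Sf3a or Sf3b, Prpf, Hnrnp, Rbm, U2af or Lsm, with a number after the stem for Srsf, Rbm and Lsm. The rule found 102 of the 7886 genes of the deposited count table, of which 10 are SR proteins, 8 Sm proteins, 4 proteins of the U1 and U2 particles, 8 subunits of SF3A and SF3B, 2 of U2AF, 12 Prpf proteins, 10 LSm proteins, 20 hnRNPs and 28 RBM proteins. In the mouse annotation the same rule matches 130 genes. The other 28 (18 of them protein coding, among them Sf3a2, Rbm42, Lsm10, Lsm11 and Srsf12) are absent from the table, which the authors filtered on level, and were not analysed here.

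The embryos (wild type, C57BL/6N, with IVF in their titles) were injected as zygotes, then taken apart at the 8-cell stage so that single blastomeres could be sequenced with Smart-seq2, which copies full-length cDNA from 1 cell. The groups were Let7d (let-7d mimic), Let7e (let-7e mimic), mi699a-5p (a microRNA named so in the labels) and NC (negative control), and all of them, controls included, had been microinjected. After 1 pair of columns was counted as 1 cell, there were 18 Let7d cells from 3 mouse ids, 20 Let7e cells from 4, 21 mi699a-5p cells from 4 and 22 NC cells from 3. By its title the series concerns let-7 in the inheritance of a metabolic decline from the father. Cells of 1 mouse id were summed and each mouse id counts as 1 replicate. What animal or embryo an id stands for is not given, and p-values therefore measure only the spread between these ids. Each group has ids of its own, so a batch that coincides with a group and the injected material cannot be told apart.

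Introns are removed by the spliceosome, which is built from small nuclear ribonucleoproteins (snRNPs). U1 recognises the start of the intron, U2AF and then U2 with SF3A and SF3B its end, and the U4/U6.U5 tri-snRNP with the Prpf proteins brings in the catalytic core. SR proteins and hnRNPs bind the transcript and shift which exons are kept, often in opposite directions. In the mouse embryo these proteins come first from the oocyte and then from the embryo's own genome. Counts per gene show how much of each factor's transcript was present and cannot show splicing itself. Many SR protein and hnRNP genes also make transcripts with a poison exon that are destroyed, and the counts do not separate these from coding transcripts.

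The injected let-7d and let-7e share their seed, bases 2 to 8 of the mature strand, which pairs with target sites. The mature sequences (RefSeq, GRCm38.p6) are shown because the treatments differ only outside the seed, at 3 of 22 positions, with 19 identical. Capitals mark the seed.
mmu-let-7d-5p: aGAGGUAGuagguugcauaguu
mmu-let-7e-5p: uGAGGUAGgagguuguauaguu
The mouse let-7d strand lies at chr13:48536078-48536099 on the minus strand and the let-7e strand at chr17:17830366-17830387 on the plus strand. Matches to the seed were sought as CTACCTC or TACCTCA on the sense strand of the annotated 3′ UTR of each gene's principal transcript (GENCODE M21, GRCm38), with overlapping matches counted once. Of the 102 genes 10 hold a match, or 9.8%, against 15.6% of the 7593 genes of the table with a 3′ UTR. The median 3′ UTR was 876.5 bases long in the 102 genes and 1002 bases over all genes. The 10 genes are Sf3a1, Prpf4, Prpf18, Prpf38b, Prpf39, Hnrnpdl, Hnrnpr, Rbm19, Rbm33 and Rbm38. Hnrnpr and Rbm19 hold 2 matches each, in annotated 3′ UTRs of 19419 and 1002 bases, so the 2 counts are not alike per length. The 6 windows below belong to members with values reported further on and show each match in capitals with its flanks.
Sf3a1 (chr11:4181160-4181182, plus strand): tttttccaTACCTCAaatcgccc
Prpf4 (chr4:62425660-62425682, plus strand): atttaaccCTACCTCAgtggtgc
Hnrnpdl (chr5:100034383-100034405, minus strand): tagggctgTACCTCActggcaag
Rbm19, first (chr5:120198325-120198347, plus strand): tggggactCTACCTCAtcatcgg
Rbm19, second (chr5:120198622-120198644, plus strand): ccccagcaCTACCTCtcaagcaa
Rbm38 (chr2:173034580-173034602, plus strand): ctccacacCTACCTCAgggagcc
A match is a description of the letters and does not show that the site is used.

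A cell carried 1575609 to 4950404 reads (median 2736612) and a mouse id 6329464 to 24037593 reads from 2 to 8 cells. Of 14 blastomere markers 11 were in the table, with summed levels of 7530 to 8350 CPM in Let7d, 9160 to 10100 CPM in Let7e, 8470 to 12600 CPM in mi699a-5p and 8200 to 9260 CPM in NC ids. CPM are reads scaled to library size with TMM factors, a share of the reads, so that less of one transcript and more of the others cannot be told apart. None of the 12 cumulus, 6 sperm, 4 blood, 3 skin or 3 stromal markers was in the table, which the authors filtered on level. Mean reads per cell were 3335123 in Let7d, 2980843 in Let7e, 2256184 in mi699a-5p and 2553452 in NC. Ribosomal RNA genes took 5.92% ± 2.61 of the reads in Let7d (SD, n = 3), 8.72% ± 3.72 in Let7e (n = 4), 9.96% ± 1.98 in mi699a-5p (n = 4) and 13.3% ± 3.55 in NC (n = 3).

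The splicing factor and hnRNP genes that the table kept after the authors' filter on level were abundant transcripts of these blastomeres. Their median level was 24.9 RPKM (reads per kilobase of exon, scaled to library size, computed here from the counts and the union of annotated exons), against 9.96 RPKM over all 7886 genes. Levels ran from 1.95 RPKM for Hnrnpul1 to 282 RPKM for Snrpb. The Sm proteins had the highest group median (69.7 RPKM), followed by SR proteins (44.6), U1 and U2 proteins (40.1), SF3A and SF3B (36.0), LSm proteins (27.2), hnRNPs (26.2), U2AF (18.7), Prpf proteins (17.3) and RBM proteins (11.7). With the length of the principal transcript in place of the union of exons the median over the 102 genes was 44.7, so levels per length depend on the transcript model. A median over all genes by that length is not given, so 44.7 cannot be set against 9.96.

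**Figure D1:**
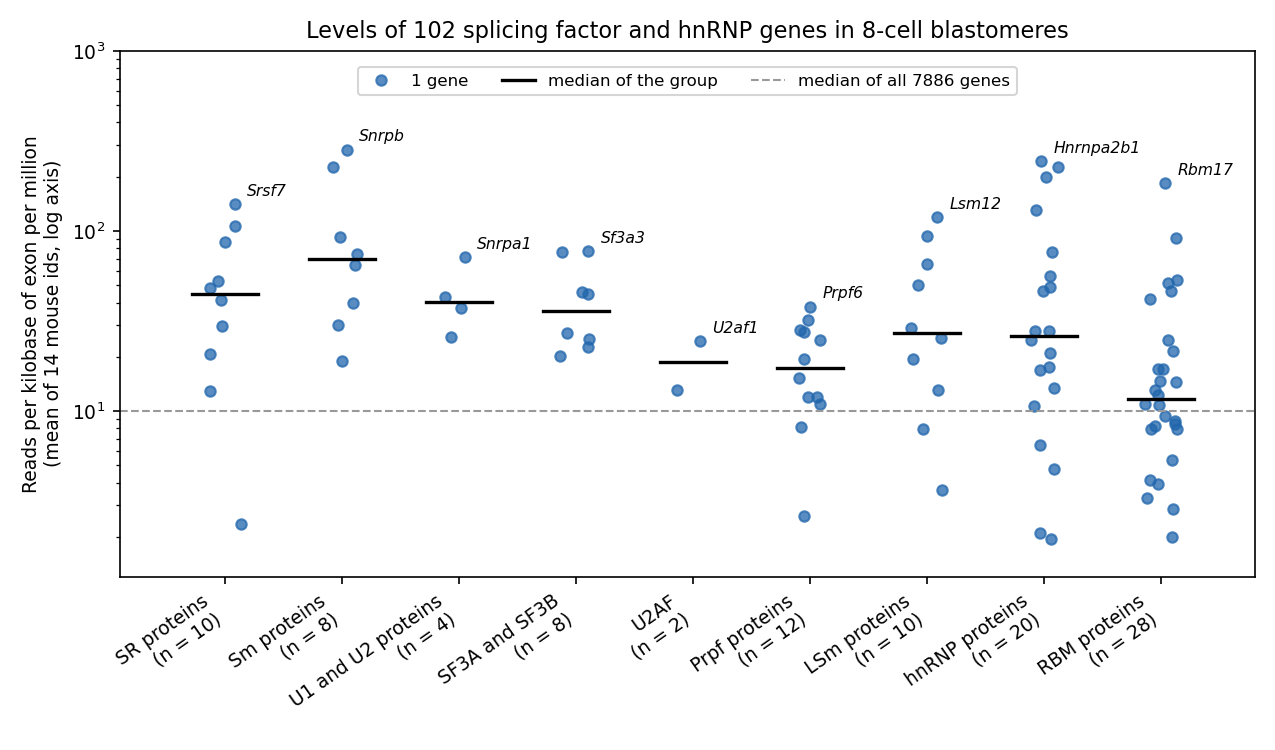
Level of each of the 102 genes in RPKM (log axis, mean of 14 mouse ids), by role, with the group median as a bar, the highest gene of each group named and the median of all 7886 genes dashed. Group medians run from 11.7 for RBM proteins to 69.7 for Sm proteins, all above the 9.96 of all genes.

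The 102 genes together took 1.9% ± 0.111 of all reads in Let7d (SD, n = 3), 2.0% ± 0.155 in Let7e (n = 4), 1.89% ± 0.0276 in mi699a-5p (n = 4) and 1.84% ± 0.146 in NC (n = 3). By mouse id the share was 1.97%, 1.77% and 1.95% in Let7d, 1.78%, 2.12%, 1.99% and 2.1% in Let7e, 1.9%, 1.89%, 1.93% and 1.86% in mi699a-5p, and 1.8%, 2.01% and 1.73% in NC. The groups overlapped. Without the ribosomal RNA genes in the total the order of the groups was another, with 2.02% in Let7d, 2.19% in Let7e, 2.11% in mi699a-5p and 2.13% in NC. In single cells the share lay between 1.48% and 2.4% with a median of 1.9%. The hnRNPs alone took 0.623% ± 0.0439 of the reads in Let7d, 0.659% ± 0.109 in Let7e, 0.648% ± 0.0263 in mi699a-5p and 0.617% ± 0.0647 in NC.

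**Figure D2:**
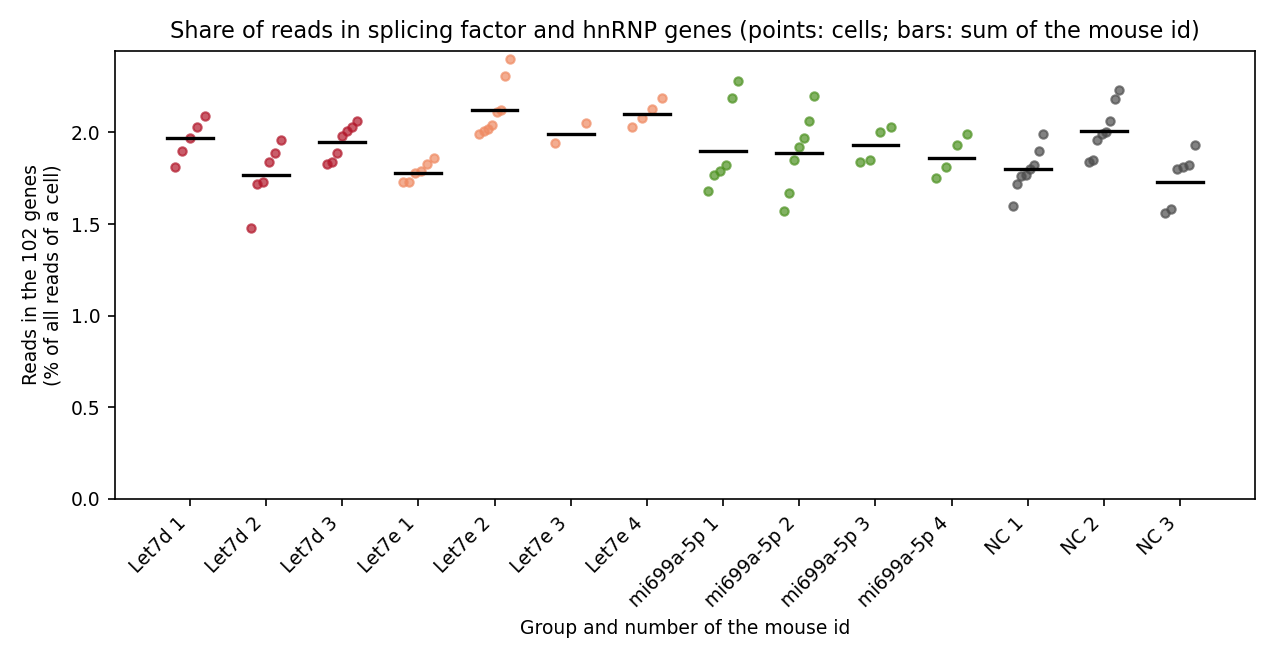
Percent of all reads of a cell that fall in the 102 genes, by mouse id, with 1 point per cell and a bar at the value of the summed mouse id. Cells lie between 1.48% and 2.4% and mouse ids between 1.73% and 2.12%, with the groups overlapping.

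Among the SR proteins, which bind exonic enhancers and recruit U1 and U2AF, Srsf7 had the highest level at 141 ± 30.0 RPKM (SD, n = 14 mouse ids), followed by Srsf2 at 106 ± 28.6 and Srsf5 at 86.2 ± 21.6. By principal transcript length Srsf5 was above Srsf7 (225 against 218). Srsf3, Srsf6 and Srsf1 lay between 41.1 and 53.0 RPKM. Srsf4 was the lowest of the 10 at 2.36 ± 0.756 RPKM and had no read in 15 of 81 cells. An antisense transcript covers 43.0% of its exons, and since the strand setting of the counting is not given, reads of the 2 cannot be told apart.

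The 7 Sm proteins that close a ring on each spliceosomal snRNA were not equally abundant. Snrpb had 282 ± 78.4 RPKM and Snrpe 227 ± 51.1, Snrpd1, Snrpg and Snrpd3 had 64.9 to 92.9, Snrpd2 had 30.1 ± 10.3 and Snrpf 19 ± 4.80. By the length of the principal transcript Snrpe was the highest at 620 and Snrpf again the lowest at 19. A gene on the opposite strand, Ccdc38, overlaps 65.9% of the Snrpf exons, and the annotation holds processed pseudogenes named for Snrpe and Snrpc (Snrpert, Snrp1c-ps1), so that these counts are uncertain. Snrpn, the Sm protein gene of an imprinted locus, had 39.8 ± 15.3 RPKM and shares 27.3% of its exons with Gm38393 on the same strand. Among proteins of single particles, Snrpa1 of U2 had 71.4 ± 11.8 RPKM, Snrpb2 of U2 42.9 ± 8.75, Snrpa of U1 37.4 ± 7.2 and Snrpc of U1 25.8 ± 6.48.

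Of the SF3A and SF3B subunits, which hold U2 at the branch point, Sf3a3 and Sf3b1 had 77.3 ± 9.85 and 76.2 ± 18.9 RPKM. The others lay between 20.1 RPKM for Sf3a1 and 45.9 RPKM for Sf3b6. U2af1, which reads the AG at the intron's end, had 24.4 ± 5.05 RPKM, and U2af2, which binds the pyrimidine tract, 13 ± 4.53. Of the Prpf proteins, Prpf6 of the tri-snRNP had the highest level at 37.9 ± 9.73 RPKM, but by principal transcript length it was below Prpf38a (47.9 against 67.9). Prpf8, the scaffold of the catalytic core, had 27.3 ± 6.38 and Prpf19, the ubiquitin ligase of the Prp19 complex, 2.61 ± 1.05 RPKM.

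The LSm proteins form 2 rings that share Lsm2 to Lsm7. With Lsm8 the ring binds U6 snRNA in the nucleus, and with Lsm1 it promotes decapping and decay of mRNA in the cytoplasm. Lsm8 had 28.9 ± 8.55 RPKM and Lsm1 7.92 ± 3.11, with Lsm1 below Lsm8 also by principal transcript length (9.2 against 150). The shared members lay between 13.1 RPKM for Lsm6 and 94.0 RPKM for Lsm4. Lsm12, which belongs to neither ring, was the highest LSm gene at 119 ± 21.1 RPKM, but by principal transcript length it was below Lsm2 and Lsm8 (126 against 188 and 150).

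The hnRNPs were led by Hnrnpa2b1 at 244 ± 59.8 RPKM, Hnrnpc at 227 ± 26.7, Hnrnpa1 at 200 ± 44.8 and Hnrnpk at 130 ± 29.7. Hnrnpa2b1 and Hnrnpa1 bind exonic and intronic silencers, Hnrnpc binds uridine tracts of nascent RNA and Hnrnpk cytosine-rich stretches. Annotated processed pseudogenes named for Hnrnpa1 make its count uncertain. From Snrpb down through Hnrnpa2b1, Hnrnpc, Snrpe, Hnrnpa1 and Rbm17, the 6 most abundant of the 102 genes per length of exon, neighbours in the order differed by less than the larger of their SDs. By principal transcript length Hnrnpa2b1 was the first of them at 979, and Hnrnpk at 313 was above Rbm17 at 276. Among the RBM proteins, a family defined by its RNA recognition motif, Rbm17, which takes part in recognition of the intron's end, had 184 ± 32.0 RPKM and Rbm8a, a core subunit of the exon junction complex, 91.0 ± 23.4. At the other end Rbm15b had 2.0 ± 1.22 RPKM.

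With let-7d against NC none of the 102 genes passed the test. Rbm26, Hnrnpd and Srsf2 had lower values in Let7d and Sf3a1 higher ones at an unadjusted p under 0.05. However, no adjusted p was below 0.886 in edgeR's fit of the 4 groups or below 0.522 by DESeq2. With these 2 groups only, edgeR gave Rbm26 an adjusted p of 0.73. Rbm26, on chromosome 14 from 105106751 to 105177327 on the minus strand, encodes an RNA-binding protein linked to nuclear RNA decay in human cells. It had 27.3, 41.5 and 46.0 CPM in the Let7d ids, against 83.3, 86.1 and 91.2 CPM in the NC ids. All 3 Let7d ids lay below every NC id, and the log2 fold change was -1.18 ± 0.31 (SE, unadjusted p = 0.00124, adjusted p = 0.886, edgeR's quasi-likelihood test with Benjamini-Hochberg adjustment over all genes). It was -1.13 with cells thinned to 1 depth and -1.18 without the ribosomal RNA genes, both of which differed between these groups, and lay between -1.32 and -0.99 over 25 alternatives. Gm17066, a transcript on the same strand that is also in the table, overlaps 5.4% of the Rbm26 exons.

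Hnrnpd, which binds AU-rich elements and influences mRNA decay, had 76.1, 46.5 and 58.5 CPM in Let7d ids and 103, 94.2 and 113 CPM in NC ids. The groups did not overlap (log2 fold change -0.78 ± 0.33, edgeR unadjusted p = 0.0283, adjusted p = 0.986). Srsf2, an SR protein of nuclear speckles, had 317, 322 and 181 CPM in Let7d ids and 476, 331 and 422 CPM in NC ids, again without overlap (-0.58 ± 0.27, p = 0.0465). Genes on the opposite strand, Mettl23 and Mfsd11, overlap 15.6% and 9.7% of the Srsf2 exons. Sf3a1 had 148, 126 and 197 CPM in Let7d ids and 114, 92.9 and 101 CPM in NC ids, with every Let7d id above every NC id (0.61 ± 0.28, p = 0.0414). It carries one of the let-7 matches shown above. Without Let7d replicate 3 the fold change of Srsf2 was -0.35 and that of Sf3a1 0.43.

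These 4 genes are 3.92% of the 102, against 4.69% of all genes at an unadjusted p under 0.05 in this comparison. By direction 1 was higher and 3 were lower (0.98% and 2.94%), against 2.65% and 2.04% of all genes. By edgeR 0 of the 102 genes and by DESeq2 also 0 had an adjusted p under 0.05, against 0.0127% of all genes by edgeR, which is 1 gene. DESeq2 also passed genes outside the 102, counted in the section on processing. Without NC replicate 2 the count of 4 became 9 and without NC replicate 3 it became 2. The share of all genes was not counted in those fits, so whether the whole table moved as well cannot be told. The values of 14 genes did not overlap between the 2 groups, or 13.7%, against 12% of all genes. Of these 5 lay above NC and 9 below (4.9% and 8.82%), against 6.0% and 5.96% of all genes. Besides the 4 above they were Hnrnpc, Snrpa1, Rbm41 and Srsf4 above NC, and Hnrnpa2b1, Lsm4, Lsm5, Prpf8, Rbm25 and Srsf11 below it. Hnrnpa2b1 had 1440, 1180 and 1110 CPM in Let7d ids and 1810, 1790 and 1490 CPM in NC ids (-0.45 ± 0.23, p = 0.0602).

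By role 9 of 10 SR protein genes, 7 of 10 LSm genes and 13 of 20 hnRNP genes had a negative fold change in Let7d, while 6 of 8 SF3A and SF3B genes and 8 of 12 Prpf genes had a positive one. Over the 102 genes 44 were higher, or 43.1%, against 51.0% of all genes, and the median log2 fold change was -0.05 against 0.01. Without Let7d replicate 2 the higher genes were 6 of 10 SR genes and 53 of the 102, and without Let7d replicate 3 they were 3 of 8 SF3A and SF3B genes. Under 5 other scalings of the counts the number of higher SR genes was 1 in each.

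With let-7e against NC none of the 102 genes passed the test either, and the 3 genes at an unadjusted p under 0.05 all had higher values in Let7e. Prpf3, a protein of the U4/U6 snRNP, had 52.1, 99.8, 139 and 91.2 CPM in Let7e ids and 47.2, 43.0 and 50.3 CPM in NC ids. Every Let7e id lay above every NC id (log2 fold change 1.03 ± 0.36, edgeR unadjusted p = 0.0107, adjusted p = 0.999). The fold change stayed between 0.79 and 1.23 over 25 alternatives. Snrpc, which helps U1 to bind the start of the intron, had 185, 192, 161 and 267 CPM in Let7e ids and 103, 187 and 111 CPM in NC ids (0.59 ± 0.26, p = 0.0335). Prpf4b, a kinase of the tri-snRNP, had 135, 94.7, 131 and 89.8 CPM in Let7e ids and 51.1, 101 and 73.0 CPM in NC ids (0.58 ± 0.27, p = 0.0454). For both, NC replicate 2 lay within the Let7e values. Without it the fold change of Snrpc was 0.91. Leaving out NC replicate 1 gave 0.43 for Snrpc (edgeR p = 0.152) and 0.37 for Prpf4b (edgeR p = 0.222). The p of Snrpc was under 0.05 in 11 and that of Prpf4b in 6 of the 14 fits that left out 1 mouse id.

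The 3 genes are 2.94% of the 102, against 4.02% of all genes in this comparison. By direction 2.94% and 0.0% of the 102 were higher and lower, against 2.33% and 1.69% of all genes. By edgeR and by DESeq2 0 of the 102 had an adjusted p under 0.05, against 0.0% of all genes by edgeR. The count of 3 became 5 without Let7e replicate 1 or without NC replicate 2, again with no share of all genes counted in those fits. Groups did not overlap for 6 genes, or 5.88%, against 5.62% of all genes. These were Hnrnpc, Prpf3, Rbm6, Rbm12 and Rbm25 above NC (4.9% against 2.78% of all genes) and Rbm3 below it (0.98% against 2.84%). Gm28036 on the same strand overlaps 32.6% of the Rbm12 exons, so that its count is uncertain. Hnrnpc had 944, 1080, 1030 and 1060 CPM in Let7e ids and 854, 856 and 903 CPM in NC ids (0.24 ± 0.17, p = 0.171). Rbm38, a regulator of mRNA stability downstream of p53 with a let-7 match, had 5.49, 23.1, 6.21 and 19.2 CPM in Let7e ids and 28.6, 18.2 and 39.0 CPM in NC ids (-1.08 ± 0.53, p = 0.0575).

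Most of the 102 genes had slightly higher values in Let7e: 70 of them, or 68.6%, against 51.9% of all genes, with a median log2 fold change of 0.10 against 0.02. They included 9 of 10 SR protein genes, 6 of 8 Sm protein genes, 14 of 20 hnRNP genes and 18 of 28 RBM genes. The count over the 102 genes was 62 to 72 when single mouse ids were left out and 69 or 70 under 5 other scalings. The SR count was 6 of 10 without Let7e replicate 4, and the Sm count 4 of 8 without Let7e replicate 1. Members were counted here without a test of the list as a whole.

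With mi699a-5p against NC 0 of the 102 genes had an adjusted p under 0.05 by edgeR or by DESeq2, against 0.0% of all genes by edgeR. DESeq2 did pass genes outside the 102, counted in the section on processing. The 3 genes at an unadjusted p under 0.05 all had lower values in mi699a-5p. Srsf2 had 273, 235, 264 and 271 CPM in mi699a-5p ids, against 476, 331 and 422 CPM in NC ids, without overlap (log2 fold change -0.65 ± 0.25, edgeR unadjusted p = 0.019, adjusted p = 0.858). Hnrnpl, which binds CA repeats, had 50.6, 57.6, 65.8 and 54.6 CPM in mi699a-5p ids and 79.6, 102 and 82.0 CPM in NC ids, without overlap (-0.62 ± 0.27, p = 0.0354). Rbm26 had 51.9, 73.2, 43.3 and 54.3 CPM in mi699a-5p ids, against the NC values given above, again without overlap (-0.64 ± 0.28, p = 0.0366). Of the 14 fits that left out 1 mouse id, the edgeR p was under 0.05 in 13 for Srsf2, 10 for Hnrnpl and 8 for Rbm26. The largest p was 0.0853 for Srsf2 (without NC replicate 1), 0.127 for Hnrnpl (without NC replicate 2) and 0.0835 for Rbm26 (without NC replicate 3). The comparison uses the same 3 NC ids as those with let-7d and let-7e, so the results for Srsf2 and Rbm26 in Let7d and in mi699a-5p are not independent.

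These 3 genes are 2.94% of the 102, against 5.5% of all genes. By direction 0.0% and 2.94% of the 102 were higher and lower, against 3.2% and 2.31% of all genes. The count was 5 without Let7e replicate 3, 6 without mi699a-5p replicate 3, 1 without NC replicate 1 and 6 without NC replicate 2. No share of all genes was counted in those fits. Groups did not overlap for 8 genes, or 7.84%, against 8.38% of all genes. Prpf18, Prpf38a and Rbm12b2 lay above NC (2.94% against 4.51%), and Hnrnpab, Hnrnpl, Rbm17, Rbm26 and Srsf2 below it (4.9% against 3.87%). Among the 102 genes 49 were higher in mi699a-5p, or 48.0%, against 54.1% of all genes (median log2 fold change -0.01 against 0.04). The Prpf genes had 8 of 12 higher members, among them Prpf6 with 230, 154, 191 and 135 CPM in mi699a-5p ids and 117, 163 and 101 CPM in NC ids (0.48 ± 0.27, p = 0.0942). Of the Sm genes 5 of 8 were higher, but 1 of 8 without mi699a-5p replicate 1 and 8 of 8 without mi699a-5p replicate 4. Snrpb had 897, 692, 537 and 501 CPM in mi699a-5p ids and 529, 557 and 772 CPM in NC ids, which overlapped. Single cells with high values weigh in these sums. For Snrpb the highest cell had 2370 CPM in mi699a-5p replicate 1 (median of its cells 709) and 2010 CPM in replicate 2 (median 612). In replicates 3 and 4 it had 588 and 631 CPM, and in the NC ids 1190, 1050 and 1260 CPM. For Snrpe the highest cell had 2650 CPM in mi699a-5p replicate 1 (median 206) and 1380 CPM in replicate 2 (median 196).

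**Figure D3:**
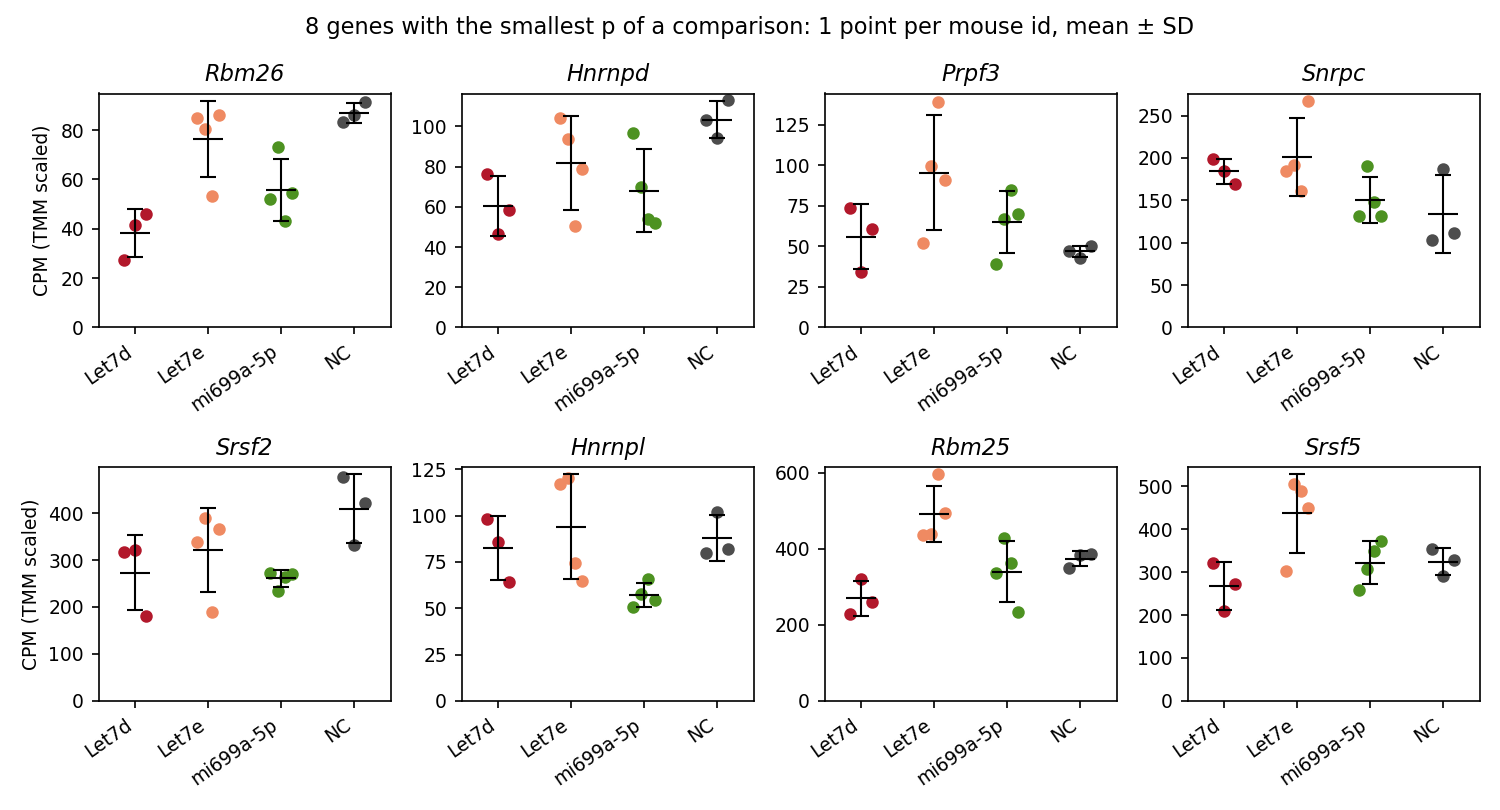
CPM (scaled by TMM factors) of the 2 genes with the smallest p in each comparison (Rbm26 leads in Let7d and follows Rbm25 in Let7e against Let7d) and of Srsf5, next in that comparison, with 1 point per mouse id and bars for the mean and SD of 3 or 4 ids. Rbm26 lies below all NC values in every Let7d and mi699a-5p id, and Rbm25 lies above all Let7d values in every Let7e id.

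Let-7e was also set against let-7d, which carries the same seed. The fold changes compare Let7e and Let7d ids, but the NC ids still enter the fit's estimate of the spread. Here 7 of the 102 genes had an unadjusted p under 0.05, 6 with higher values in Let7e. Of the 102, 0 had an adjusted p under 0.05 by edgeR or by DESeq2, against 0.0% of all genes by edgeR. Genes outside the 102 did pass by DESeq2, as counted in the section on processing. Rbm25, on chromosome 12 from 83631236 to 83683123 on the plus strand, regulates alternative 5′ splice sites through U1. It had 437, 440, 597 and 495 CPM in Let7e ids, against 228, 321 and 260 CPM in Let7d ids. The groups did not overlap, and the log2 fold change was 0.87 ± 0.22 (edgeR unadjusted p = 0.000928, adjusted p = 0.845). By DESeq2 its adjusted p was 0.0738, the lowest of the 102 genes in any comparison and setting. The NC ids had 351, 384 and 387 CPM of Rbm25, between the Let7e and the Let7d values.

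Rbm26 had 85.0, 80.5, 53.4 and 85.9 CPM in Let7e ids, against 27.3, 41.5 and 46.0 CPM in Let7d ids, without overlap (0.99 ± 0.29, p = 0.00321, edgeR adjusted p = 0.868). Srsf5 had 303, 506, 489 and 449 CPM in Let7e ids and 321, 209 and 273 CPM in Let7d ids (0.71 ± 0.22, p = 0.00542). Let7e replicate 1 lay within the Let7d values. Srsf1, the prototype SR protein, had 228, 376, 465 and 201 CPM in Let7e ids and 108, 121 and 235 CPM in Let7d ids (1.04 ± 0.37, p = 0.0108), with 2 Let7e ids below the highest Let7d id. For Rbm25, Rbm26 and Srsf5 the unadjusted p was under 0.05 in all 25 alternatives, and for Srsf1 in 22 of them. These genes were chosen by their p in the same data. Some of the alternatives repeat the main fit or leave out an id of a group not compared here.

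Lsm12 had 374, 310, 307 and 284 CPM in Let7e ids and 256, 218 and 211 CPM in Let7d ids, without overlap (0.48 ± 0.20, p = 0.0284). Snrpa1, which with Snrpb2 marks U2, was the 1 gene of the 7 with lower values, at 217, 204, 195 and 202 CPM in Let7e ids and 301, 266 and 270 CPM in Let7d ids (-0.45 ± 0.19, p = 0.0331). Prpf3 gave 0.77 ± 0.36 (p = 0.0449) with overlap. Its partner in the U4/U6 snRNP, Prpf4, which holds a let-7 match, had 43.2, 67.7, 22.4 and 66.7 CPM in Let7e ids and 76.9, 72.8 and 87.8 CPM in Let7d ids (-0.66 ± 0.35, p = 0.0736). All Let7e ids were below the lowest Let7d id, and without Let7e replicate 3 the fold change was -0.42.

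The 7 genes are 6.86% of the 102, against 5.39% of all genes (5.88% higher and 0.98% lower, against 2.79% and 2.6%). The count was 5 to 9 when single mouse ids were left out, with no share of all genes counted in those fits. Groups did not overlap for 8 genes, or 7.84%, against 6.07% of all genes. Of these Lsm12, Prpf8, Rbm8a, Rbm25 and Rbm26 lay above Let7d (4.9% against 3.12%), and Prpf4, Rbm28 and Snrpa1 below it (2.94% against 2.95%). Positive fold changes were found for 68 genes, or 66.7%, against 50.8% of all genes (median 0.17 against 0.01). They made up 9 of 10 SR genes, 9 of 10 LSm genes, 7 of 8 Sm genes and 14 of 20 hnRNP genes, but 14 of 28 RBM genes and 3 of 8 SF3A and SF3B genes. The count over all 102 was 61 without Let7d replicate 2 and 77 without Let7d replicate 1, and 67 or 68 under 5 other scalings. The LSm count was 6 of 10 without Let7e replicate 1 and the SF3A and SF3B count 6 of 8 without Let7d replicate 3. The 68 share the Let7e ids with the 70 of the comparison with NC, so the counts are not independent.

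**Figure D4:**
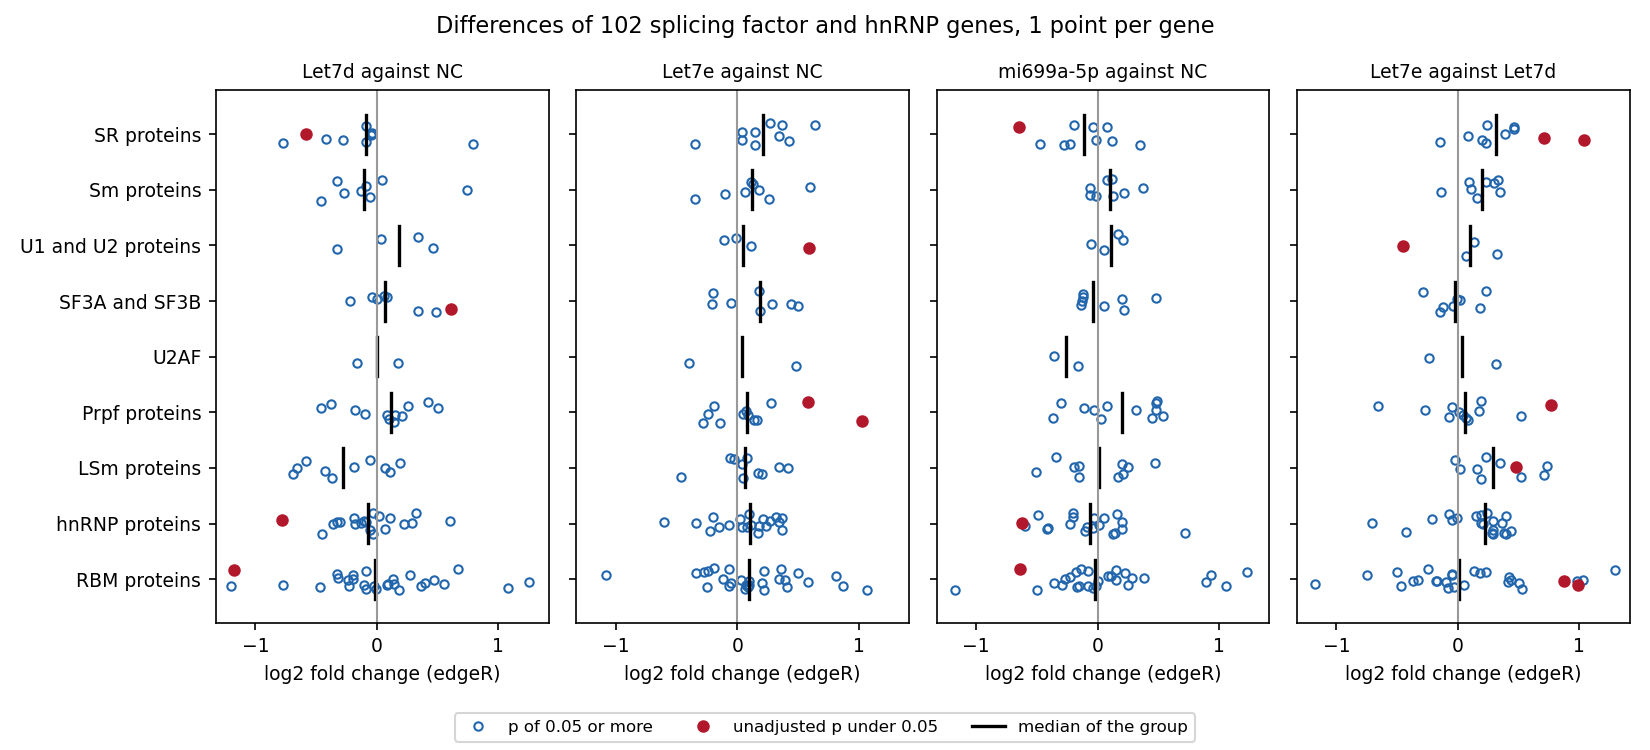
Log2 fold change (edgeR) of each of the 102 genes by role in the 4 comparisons, with genes at an unadjusted p under 0.05 filled and a bar at the median of the role. None of the genes had an adjusted p under 0.05, and role medians lie between -0.28 for LSm proteins with let-7d and 0.32 for SR proteins between let-7e and let-7d.

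Across the 4 labels at once, 0 of the 102 genes had an adjusted p under 0.05 by edgeR or by DESeq2, against 0.0% of all genes by edgeR. By DESeq2 genes outside the 102 did pass, as counted in the section on processing. Of the 102 genes 7 had an unadjusted p under 0.05 by edgeR, or 6.86%, against 5.59% of all genes. They were Rbm26 (p = 0.0055), Rbm25 (p = 0.00621), Sf3a1 (p = 0.0222), Srsf5 (p = 0.0298), Hnrnpa2b1 (p = 0.0365), Srsf1 (p = 0.0392) and Prpf3 (p = 0.045), with an edgeR adjusted p of 0.829 for Rbm26. The count was 3 without Let7d replicate 2 and 4 without Let7e replicate 2 or without mi699a-5p replicate 2 or 4. The share of all genes was not counted in those fits.

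The 10 genes with a let-7 match were set beside the other 92, without a test. In Let7d against NC 5 of 10 were higher with a median log2 fold change of 0.02, against 39 of 92 with a median of -0.06 for members without a match. In Let7e against NC 7 of 10 were higher (median 0.18), against 63 of 92 (median 0.10). In Let7e against Let7d 5 of 10 were higher (median 0.01), against 63 of 92 (median 0.18). Over all genes the medians with and without a match were 0.07 and -0.00 in Let7d against NC, 0.03 and 0.02 in Let7e against NC, and -0.04 and 0.01 in Let7e against Let7d. In mi699a-5p against the same NC ids these medians were 0.1 and 0.04. Rbm19, a nucleolar protein of ribosome biogenesis with 2 matches, had 78.4, 116 and 70.1 CPM in Let7d ids, 96.5, 104, 106 and 105 CPM in Let7e ids and 102, 124 and 78.0 CPM in NC ids. Hnrnpr, also with 2 matches, had 69.0, 112 and 111 CPM in Let7d ids, 112, 137, 132 and 96.4 CPM in Let7e ids and 120, 61.1 and 116 CPM in NC ids. The groups overlapped for both genes. Hnrnpdl was the most abundant of the 10 at 76.8 RPKM.

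Rbm3, Rbm10, Rbm41 and Hnrnph2 lie on the X chromosome, and the mouse ids differed in Xist and in 6 Y-linked genes. Xist had 0, 389 and 514 CPM in the 3 Let7d ids, 368, 0, 5.23 and 0.251 CPM in the 4 Let7e ids, 315, 0, 0 and 319 CPM in the 4 mi699a-5p ids and 0, 105 and 1.62 CPM in the 3 NC ids. The Y-linked genes summed to 248, 48.3 and 64.9 CPM in Let7d, 152, 330, 336 and 301 CPM in Let7e, 23.2, 248, 282 and 44.6 CPM in mi699a-5p and 355, 127 and 293 CPM in NC ids. Both kinds of transcript thus occurred in every group, in unequal parts.

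Rbm3, a cold-inducible RNA-binding protein, had 198, 252 and 307 CPM in Let7d ids, 226, 245, 238 and 231 CPM in Let7e ids, 171, 207, 188 and 342 CPM in mi699a-5p ids and 262, 256 and 246 CPM in NC ids. Its highest values, 307 in Let7d replicate 3 and 342 in mi699a-5p replicate 4, stood in ids with 514 and 319 CPM of Xist, and its lowest, 171 in mi699a-5p replicate 1, stood in an id with 315 CPM of Xist. Rbm41 had 28.9, 38.2 and 31.0 CPM in Let7d ids, all above the 13, 17.3 and 16 CPM of the NC ids (1.08 ± 0.74, edgeR p = 0.161). Hnrnph2 had 89.5, 94.4, 88.3 and 109 CPM in mi699a-5p ids and 43.7, 95.0 and 34.6 CPM in NC ids (0.72 ± 0.39, p = 0.0803). Its fold change was 1.28 without NC replicate 2 and 0.46 without NC replicate 3. Rbm10 lay between 40.4 and 90.1 CPM in the 14 ids. When the fit also held the Y-linked level, 0 of the 102 genes had an adjusted p under 0.05, and a part of Xist was not tested.

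Between blastomeres the 102 genes lay below the variation of genes of like abundance more often than genes in general did, except among the most abundant. Variation was measured as the biological coefficient of variation, edgeR's estimate of the spread between cells of 1 mouse id beyond counting error, which here includes the noise of amplification. The median was 0.542 over the 102 genes and 0.95 over all genes. Relative to the trend at the same abundance the medians were 0.835 and 0.963, and 85 of the 102 genes, or 83.3%, lay below the trend, against 56.1% of all genes. Below 50 CPM it was 15 of 18 members (83.3%) against 47.1% of all genes in that range, from 50 to 100 CPM 24 of 29 (82.8%) against 61.5%, and from 100 to 200 CPM 21 of 23 (91.3%) against 67.5%. At 200 CPM and above it was 25 of 32 (78.1%) against 75.8%, where the 102 genes and all genes hardly differed. Cells are not replicates, and no test was made.

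All 20 hnRNP genes, all 10 LSm genes and 9 of 10 SR genes lay below the trend, against 3 of 8 Sm genes and 21 of 28 RBM genes. Sf3b1, the branch point subunit of SF3B, had the smallest coefficient at 0.261, with 437 to 1420 CPM over the 81 cells. The lowest ratio to the trend belonged to Rbm45 (0.431), Snrpf (0.462) and Hnrnpf (0.533). Hnrnpf, which binds guanosine tracts, ranged from 22.3 to 162 CPM over the cells with a median of 82.4 CPM. Rbm45 had 0.708 to 39.6 CPM and Snrpf 2.65 to 101 CPM, and a read of each was present in every cell.

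The highest ratios were those of Rbm18 (1.37), Prpf18 (1.24) and Rbm15b (1.21). Rbm15b, part of the complex that adds N6-methyladenosine to RNA, had no read in 31 of 81 cells and reached 80.7 CPM. By mouse id its cells without a read were 1 of 5, 4 of 6 and 5 of 7 in Let7d, 1 of 6, 2 of 8, 0 of 2 and 1 of 4 in Let7e, 5 of 6, 4 of 7, 1 of 4 and 0 of 4 in mi699a-5p and 1 of 8, 4 of 8 and 2 of 6 in NC. Prpf18, which acts in the second step of splicing, had no read in 2 cells and otherwise up to 359 CPM, with mouse id values of 119, 127 and 144 CPM in Let7d, 145, 98.4, 185 and 117 CPM in Let7e, 144, 130, 142 and 145 CPM in mi699a-5p and 89.8, 127 and 120 CPM in NC. Rbm18 had no read in 7 cells and up to 173 CPM. A count of 0 allows up to 1.9 CPM in the shallowest cell (3 counts, counting error only).

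**Figure D5:**
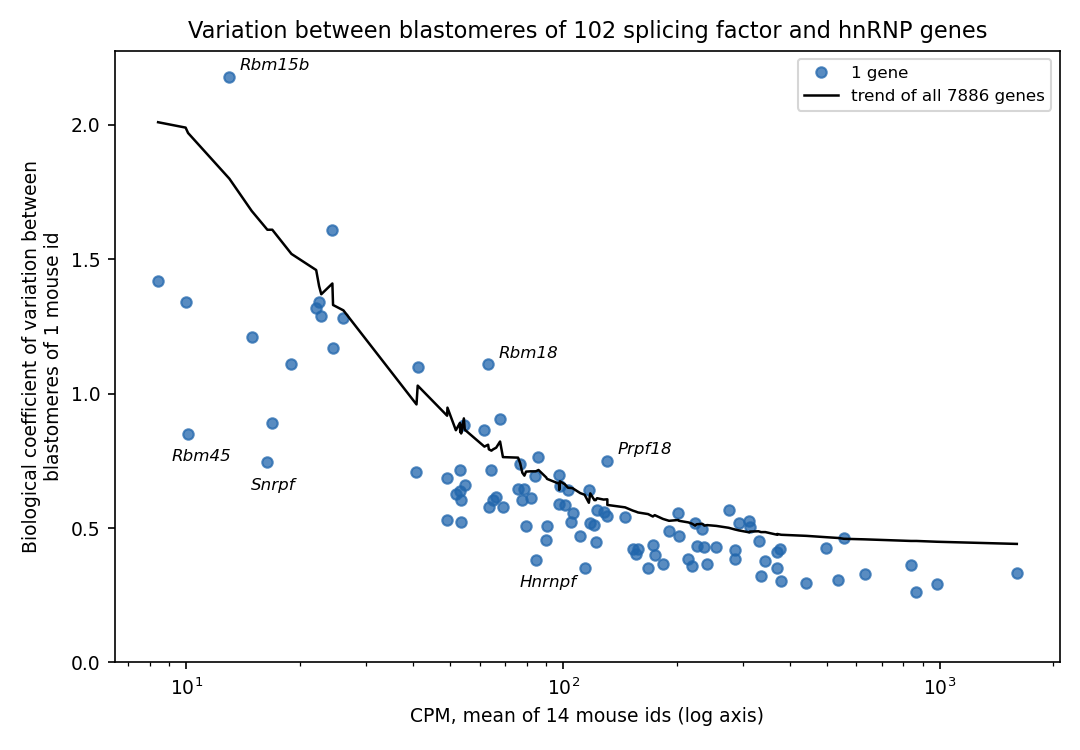
Biological coefficient of variation between blastomeres of 1 mouse id against mean CPM (log axis) for the 102 genes, with the trend of all 7886 genes at the same abundance as a line. Of the 102 points 85 lie below the line, with Rbm45, Snrpf and Hnrnpf lowest and Rbm18, Prpf18 and Rbm15b highest relative to it.

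Of the 102 genes 77 had a read in every one of the 81 cells, or 75.5%, against 34.1% of all genes, which are less abundant. At like abundance the shares were 27.8% against 5.24% below 50 CPM and 65.5% against 42.7% from 50 to 100 CPM. They were 91.3% against 81.3% from 100 to 200 CPM and 100% against 98.0% at 200 CPM and above. The share of the variance of log2 CPM that lay between mouse ids of a group, rather than between cells of 1 id, had a median of 3.8% over the 102 genes and of 4.21% over all genes. It was highest for Rbm47 at 47.2%, a gene singled out after its values were seen, which encodes a cofactor of C-to-U RNA editing. Rbm47 had 374, 434 and 203 CPM in Let7d ids, 178, 716, 472 and 159 CPM in Let7e ids, 241, 232, 364 and 351 CPM in mi699a-5p ids and 194, 184 and 516 CPM in NC ids. Each group held both low and high ids, and no comparison had an unadjusted p below 0.453 for it. Srsf3 (39.9%) and Sf3b1 (37.2%) came next.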

How the data were processed

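The authors deposited raw read counts per gene and cell from Smart-seq2 libraries without molecular identifiers, so that counts include amplification copies and intervals cover counting error only. The aligner was STAR and the build GRCm38.p6, per the submitters' processing notes, while the counting program and its strand setting are not given in the sources used here. The deposited RPKM table was not used here. Of 92 labelled cells 82 have a column and 10 were not analysed. A pair of columns of Let7d mouse id 2 agreed within sampling noise (chi-square 1.05 per gene, next smallest pair 28.7) and was summed as 1 cell, leaving 81. Symbols, exon lengths and 3′ UTRs came from GENCODE M21, which matched 7878 of 7886 identifiers.

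Counts were summed per mouse id (3, 4, 4 and 3 ids) and tested in 1 fit of the 4 groups with edgeR 4.0.16 in R 4.3.3 (TMM, filterByExpr, which removed 0 genes, and the two-sided quasi-likelihood F test with 10 residual degrees of freedom), adjusted by Benjamini-Hochberg over all 7886 genes at 0.05. Alternatives were DESeq2 1.42.0, other scalings, filters and covariates, and leaving out each id. Scripts were tested on simulated data. Replicate numbers are those of the mouse ids and do not pair samples across groups. Named genes were, per comparison, the 4 smallest p in each direction, and the 2 highest levels per role, the 3 highest and 3 lowest variation ratios among genes with at least 10 CPM, X-linked genes and genes with 2 or more let-7 matches, and from a wider splicing list the 2 smallest p in each direction. Members, lists and the rule were chosen with earlier results of these data known. Values of 1 member are not reported here.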

Additional observations from a re-analysis of the deposited data

Results flagged for a closer look

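In 90 groups of 4 mouse ids checked over the named genes, 2 had a value far from the other 3, where chance gives about 1 in 20. Rbm26 had 53.4 CPM in Let7e replicate 3, against 80.5 to 85.9 CPM in the other 3 Let7e ids. That id was summed from 2 cells and has the fewest reads of any. Rbm48, needed for splicing of minor introns in human cells and maize, had 49.8 CPM in Let7e replicate 2, against 21.7 to 26.4 CPM in the other 3. The cause of either value was not tested.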

How the results depend on the processing

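Under all alternatives, 124 counts in all, 0 of the 102 genes had an adjusted p under 0.05, and 800 of 800 fold changes of followed genes kept their sign. The followed genes were chosen by the smallest p in these same data, so their kept signs are no independent support. Fits without a filter and with both columns of the pair as cells repeat the main fit. Others leave out an id of a group that is not compared, which changes a fold change little. Over all genes 1, 0, 0, 0 and 0 passed (let-7d, let-7e and mi699a-5p against NC, let-7e against let-7d, any group). DESeq2 gave 2, 0, 7, 8 and 15, and in let-7d the 1 became 0 with 2 groups only or with the Y-linked covariate, and thinned cells gave 1 for any group. Leaving out single ids gave 0 to 1, 0 to 0, 0 to 2, 0 to 1 and 0 to 1. The share of all genes at an unadjusted p under 0.05 was counted in the main fit only. The counts that follow therefore cannot show whether the whole table moved as well. With single ids left out, counts of the 102 genes at an unadjusted p under 0.05 (main 4, 3, 3, 7 and 7) ranged from 2 to 9, 2 to 5, 1 to 6, 5 to 9 and 3 to 9. For let-7d that count was 8 with DESeq2 and 9 with 2 groups only, for mi699a-5p 5 when 10 CPM in 3 ids were required, and for any group 4 with the Y-linked covariate. A replicate block, although same-numbered ids did not deviate together (r = -0.168 to 0.166 in 19 pairs), gave 7 for let-7d, 5 for let-7e and 4 for any group, and 0 genes in let-7d. Without ribosomal RNA genes the read shares were 2.02%, 2.19%, 2.11% and 2.13%, and principal transcript length gave a median level of 44.7 (chosen after seeing the data). With 3 or 4 ids per group and a common dispersion of 0.249, differences of small size were not detectable, and larger ones could also fail to pass. Rbm26 at -1.18 in let-7d and Prpf3 at 1.03 in let-7e, both against NC, had edgeR adjusted p of 0.886 and 0.999. A gene that did not pass may therefore still differ.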

Other observations

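Splicing genes outside the symbol rule were described from a wider list of 107 genes, of which 101 were in the table. Their levels and variation were close to those of the 102 genes, with a median of 24.4 RPKM and 83.2% below the abundance trend of variation between cells. In no comparison did 1 of them have an adjusted p under 0.05 by edgeR. At an unadjusted p under 0.05 there were 2 higher and 3 lower in Let7d against NC (1.98% and 2.97%, against 2.65% and 2.04% of all genes) and 4 higher and 0 lower in Let7e against NC (3.96% and 0.0%, against 2.33% and 1.69%). There were 6 higher and 2 lower in mi699a-5p against NC (5.94% and 1.98%, against 3.2% and 2.31%), and 4 higher and 1 lower in Let7e against Let7d (3.96% and 0.99%, against 2.79% and 2.6%). The smallest p was that of Cwc22, which joins the spliceosome to the exon junction complex, with 166 ± 66.4 CPM in the 4 mi699a-5p ids (SD) and 74.5 ± 13.7 CPM in the 3 NC ids, a log2 fold change of 1.16 ± 0.31 (p = 0.00152, adjusted p = 0.822, both from edgeR's fit across all genes). Mbnl1, a regulator of alternative exons, had 80.6 ± 79.1 CPM in Let7e and 11.2 ± 11.8 CPM in NC (2.84 ± 0.87, p = 0.0043, adjusted p = 0.999), with a spread close to the mean. It had 59.0 ± 39.4 CPM in mi699a-5p (2.39 ± 0.85 against NC, p = 0.0117, adjusted p = 0.858), and 19.7 ± 13 CPM in Let7d. The fold change in Let7e against Let7d was 2.03 ± 0.83 (p = 0.0257, adjusted p = 0.924). Ptbp1, which represses exons next to pyrimidine tracts, had 221 ± 65.2 CPM in Let7d and 380 ± 80.5 CPM in NC (-0.78 ± 0.31, p = 0.0209, adjusted p = 0.986). Luc7l3, a U1-associated protein, had 89.1 ± 18.6 CPM in Let7d and 133 ± 20.6 CPM in NC (-0.58 ± 0.25, p = 0.0298, adjusted p = 0.986). Higher in Let7d than in NC were Dhx8 (203 ± 20.0 against 132 ± 15.2 CPM, 0.63 ± 0.27) and Zrsr2 (64.1 ± 27.2 against 28.5 ± 16.5 CPM, 1.17 ± 0.53). Eftud2 was higher in Let7e than in NC (0.66 ± 0.25). Pcbp2 (-0.64 ± 0.29) and Snrnp48 (-0.63 ± 0.3) were lower in mi699a-5p than in NC. Each had an unadjusted but no adjusted p under 0.05 by edgeR. In Let7e against Let7d the fold changes were 0.71 ± 0.29 for Ptbp1, 0.60 ± 0.23 for Luc7l3 and -1.02 ± 0.48 for Zrsr2.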
